A study of Mus musculus with 24 samples.

Results

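Brown adipose tissue (BAT) of mice on either of 2 high-fat diets (HFD) was compared with that of mice on a low-fat diet. The 8 HFD arrays of brown fat entered as the mean of their 2 diet means, and they were set against the 4 low-fat arrays. These 12 arrays were chosen by their titles out of 24 in the series. The other 12 were of white adipose tissue (WAT) on the same diets. The question was which genes follow the fat content of the diet whatever the fat type. The groups were brown fat of male C57Bl/6J mice on the low-fat control diet, on an HFD made with corn oil, and on an HFD with eicosapentaenoic and docosahexaenoic acid (EPA/DHA), with 4 arrays each. All groups shared strain and sex. The design text gives 4 mice per diet, picked as representative of it in weight, plasma triglyceride and plasma cholesterol, so they were no random draw from the diet group. Age, duration of feeding and the fat content of each diet are not given in the sources used here. "Whatever the fat type" here covers these 2 fats only.

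Brown fat burns fatty acids to make heat. Its mitochondria carry the uncoupling protein Ucp1, and noradrenaline, acting through cAMP, drives both lipolysis and Ucp1 activity. Fatty acids are released from droplets, activated to acyl-CoA, carried into mitochondria as carnitine esters or shortened in peroxisomes, and they also serve as ligands of the PPAR family of transcription factors. The same cells also make fatty acids from glucose, a route that dietary fat is known to dampen.

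The values are log2 expression per probe. All 12 arrays carried the markers of brown fat. Ucp1 lay between 13.55 and 14.41, and the mean of 9 brown adipocyte markers between 11.19 and 11.55. On low-fat none of the 9 lay near the floor of about 7, while Elovl3, 1 of them, was at 7.09 to 7.25 on corn oil. This check matters because the extraction text names skeletal muscle as the source. Muscle markers were present too: the mean of 19 of 20 skeletal muscle markers ran from 8.86 to 10.74 in the low-fat arrays and from 7.95 to 11.998 in the HFD arrays, so muscle marker levels varied within every diet. Low-fat replicate 2 stood apart from the other arrays. Its mean correlation with the other brown fat arrays was 0.969, against 0.983 to 0.990 for the rest, and it lay at -41.8 on the first principal component, which held 39.0% of the variance. Several leading results are therefore also given without it. In whole tissue, fewer cells of a type and less RNA per cell cannot be told apart. The labels do not say how extractions or arrays were spread over batches.

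No probe passed an adjusted p of 0.05 for both HFDs against low-fat in brown fat: 0 of 27168 probes were called (0%), and the smallest adjusted p was 0.0886 (limma, Benjamini-Hochberg over all probes tested). At an unadjusted p under 0.05, 1976 probes (7.27%) differed, 683 higher and 1293 lower on the HFDs. Counted by gene, with each gene represented by its brightest probe, these were 1021 of 13475 genes (7.58%), 421 higher (3.12%) and 600 lower (4.45%). In 84 genes (0.623%) the 8 HFD arrays and the 4 low-fat arrays did not overlap, 27 lying higher (0.2%) and 57 lower (0.423%). The median half-width of the unadjusted 95% interval was 0.13 over the probes that represent the 13475 genes and 0.11 over all 27168 probes. For such a probe a smaller shift would lie within the interval. Far wider shifts could still miss the adjusted threshold, as did Tspan18 at -0.62 (adjusted p = 0.0886). Without low-fat replicate 2, again 0 probes were called, while the genes at an unadjusted p under 0.05 numbered 1201 (8.91%) and split evenly, 605 higher (4.49%) and 596 lower (4.42%). The excess of lower genes was thus not present without that array.

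The count depended on which arrays estimated the spread. When all 24 arrays shared 1 estimate, 101 probes were called for the same brown fat contrast, 17 higher and 84 lower, and by gene 48, 8 higher and 40 lower. The residual SD of the same probes had a median of 0.08 in brown fat and 0.05 in white fat, and 18 residual degrees of freedom replaced 9. That fit thus applies a spread that is in part white fat's to brown fat. Genes below are said to be called by it only where their brightest probe was called. It also called less bright probes of other list members, Sqle, Slc25a20, Crat, Insig1, Pparg, Pdhb and Acsl3 among them.

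With no gene past the threshold, the 20 genes whose brightest probes had the smallest p-values are described. Their place at the head of the ranking is no finding. Of them 15 were lower and 5 higher on the HFDs, and in 15 the 8 HFD arrays did not overlap the 4 low-fat arrays (0.623% of all genes). The differences below are HFDs minus low-fat in log2 units, ± standard error. Less bright probes of Atl3 (-0.20), Nav1 (0.29), Crat (-0.32) and Uck1 (-0.40) had unadjusted limma p-values from 3.8e-05 to 8.5e-05. These genes are not among the 20, since the ranking took the brightest probe of each gene.

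Tspan18, which encodes a tetraspanin membrane protein, had the smallest p. It was at 9.32, 9.06, 9.28 and 9.12 in the low-fat arrays, at 8.70, 8.62, 8.62 and 8.63 on corn oil, and at 8.39, 8.79, 8.41 and 8.45 on EPA/DHA. All 8 HFD arrays were below all 4 low-fat arrays. The difference was -0.62 ± 0.08 (adjusted p = 0.0886), with -0.55 on corn oil and -0.69 on EPA/DHA. It was -0.67 without low-fat replicate 2. EPA/DHA replicate 2 was the array nearest to low-fat, and without it the difference was -0.67 (adjusted p = 0.00312), which made Tspan18 the 1 probe called. A second, dimmer probe of the gene gave -0.29.

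Septin11, a GTPase of the septin cytoskeleton, was the leading gene in the other direction. Its low-fat arrays read 9.34, 9.08, 9.23 and 9.40, its corn-oil arrays 9.72, 9.89, 9.88 and 9.66, and its EPA/DHA arrays 9.62, 9.69, 9.71 and 9.79. The groups did not overlap, and the difference was 0.48 ± 0.06 (adjusted p = 0.106), or 0.42 without low-fat replicate 2.

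Car5b, the mitochondrial carbonic anhydrase that supplies bicarbonate for carboxylation reactions, was at 9.46, 9.61, 9.54 and 9.21 on low-fat. It was at 8.68, 8.77, 8.89 and 8.51 on corn oil and at 9.13, 8.78, 8.91 and 8.998 on EPA/DHA. The highest HFD array lay just under the lowest low-fat array. The difference was -0.62 ± 0.09 (adjusted p = 0.166), or -0.57 without low-fat replicate 2. All 4 Car5b probes lay lower, the other 3 by 0.35 to 0.40 on the log2 scale. Mmd2's probe did not pass the white fat filter, and of the 19 of the 20 tested in white fat Car5b alone had an unadjusted p under 0.05 there, with a difference of -0.30.

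Pex14, a peroxisomal membrane protein at which imported enzymes dock, was at 10.30, 10.84, 10.39 and 10.37 on low-fat. Corn-oil arrays gave 9.67, 9.93, 9.74 and 9.92, and EPA/DHA arrays 10.01, 10.02, 9.93 and 10.08. The groups did not overlap, and the difference was -0.56 ± 0.09, or -0.44 without low-fat replicate 2, the highest array. Mmd2, a membrane protein of the progestin and adipoQ receptor family, had the same shape, with 8.50, 8.94, 8.44 and 8.36 on low-fat, 7.76 to 7.91 on corn oil and 7.97 to 8.24 on EPA/DHA. Its difference was -0.57 ± 0.10, and -0.45 without low-fat replicate 2.

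The other lower genes without overlap included Phospho1 (-0.49 ± 0.10, or -0.39 without low-fat replicate 2), a phosphatase of phosphocholine and phosphoethanolamine. Nadk, the cytosolic kinase that makes NADP from NAD, was at 11.64 to 12.02 on low-fat and at 11.28 to 11.51 on the HFDs, a difference of -0.36 ± 0.07 that its second probe repeated (-0.36). Rcl1, a factor of ribosomal RNA maturation, was lower by -0.37 ± 0.07, and all 3 of its probes were on that side. Rab5c, a GTPase of early endosomes, gave -0.36 ± 0.07, Isoc2a -0.35 ± 0.06, and the haem-binding protein gene Hebp2 -0.33 ± 0.06. P2rx6, a subunit of ATP-gated channels (-0.17 ± 0.03), and Lats1, a kinase of the Hippo pathway (-0.14 ± 0.03), differed by little and lay close to the floor, where differences can be understated. Second probes near the floor (7.14 to 7.17 on low-fat) gave 0.01 for Hebp2, -0.07 for P2rx6 and -0.03 for Lats1.

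Among the higher genes, the kinesin light chain gene Klc1 (0.30 ± 0.05) and Apbb2, whose product binds the amyloid precursor protein (0.24 ± 0.05), did not overlap. The other probes of these genes were dim and near 0: 4 of Klc1 lay between 0.01 and 0.08, and 1 of Apbb2 at -0.00. In the shared 24-array fit, 13 of the 20 genes were called, Tspan18, Septin11, Car5b, P2rx6, Pex14, Mmd2, Isoc2a, Klc1, Hebp2, Nadk, Lats1, Phospho1 and Cnpy3, which encodes a chaperone of Toll-like receptors.

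**Figure D1:**
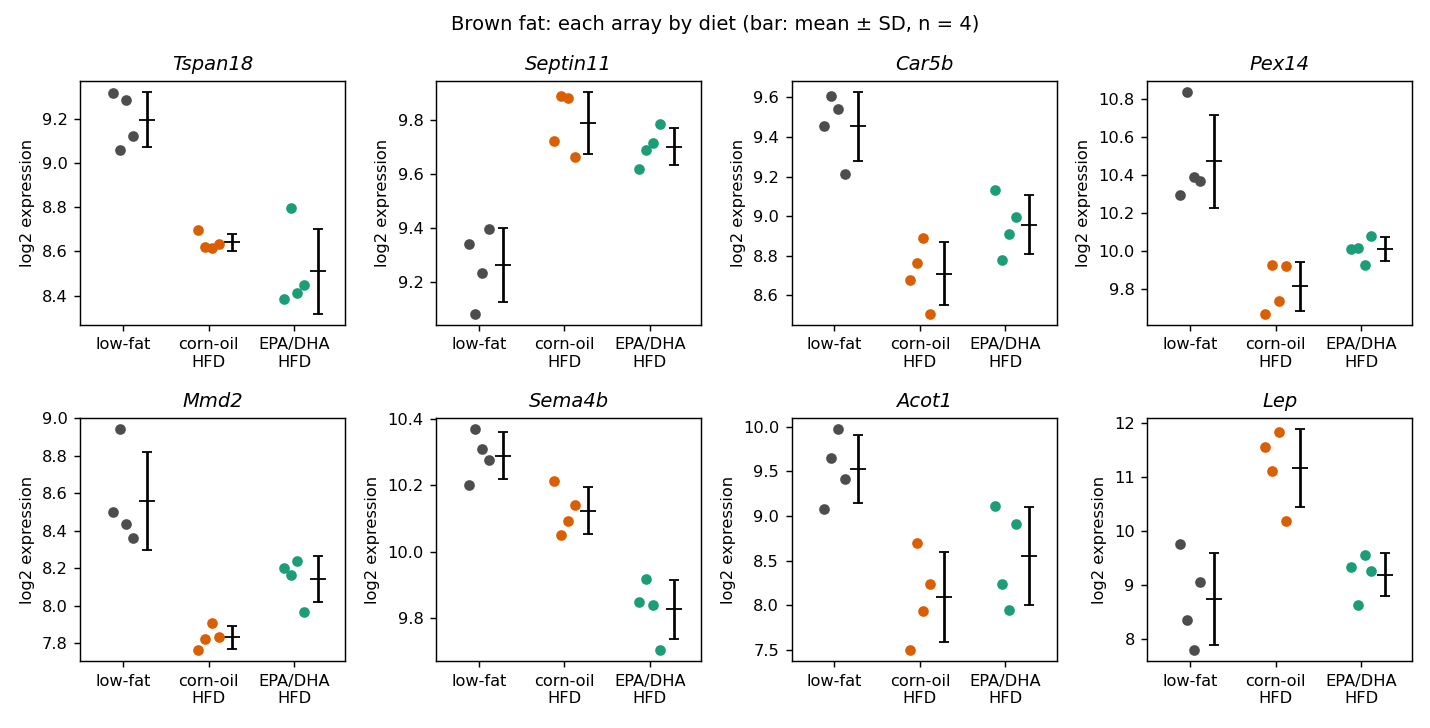
Log2 expression of 8 genes in each of the 12 brown fat arrays, by diet on the x axis; points are arrays and the bar is the mean ± SD of 4. For Tspan18, Septin11, Car5b, Pex14 and Mmd2 both HFD groups lie on the same side of low-fat with no overlap, whereas Sema4b is lowest on EPA/DHA, Lep is high on corn oil alone, and 1 EPA/DHA array of Acot1 (9.11) lies above the lowest low-fat array (9.08).

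Whether a gene follows fat content whatever the fat type was read from the difference between the HFDs, EPA/DHA minus corn oil, which is orthogonal to the pooled contrast but shares its estimate of the spread. No probe passed for that difference (0 of 27168, 0%), and 670 genes (4.97%) had an unadjusted p under 0.05. A p that misses the threshold does not show that the diets act alike, so the 95% interval of the difference was set against the size of the pooled effect. In 134 of 13475 genes (0.994%) both ends of that interval were smaller in size than the pooled difference, and these included 16 of the 20. The 20 were ranked by the pooled difference over its standard error, and the interval is a multiple of the same estimated spread, so they meet this condition largely by their selection and nothing is read from the 16. For Tspan18 the interval was -0.33 to 0.06 and for Septin11 -0.25 to 0.08. The dimmer Tspan18 probe, with a pooled difference of -0.29, gave 0.25 for EPA/DHA minus corn oil. The brightest probe gave -0.13, so the probes of Tspan18 disagree on fat type. P2rx6 and Lats1 differed between the HFDs by -0.01 and 0.01, and Phospho1 by 0.03 (interval -0.21 to 0.28).

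The remaining 4 of the 20 were Sema4b, Cab39l, Isoc2a and Mcam. Sema4b, a transmembrane semaphorin, was at 10.20 to 10.37 on low-fat, at 10.05 to 10.21 on corn oil and at 9.70 to 9.92 on EPA/DHA. Its effect was -0.17 on corn oil and -0.47 on EPA/DHA, and the HFDs differed by -0.30 ± 0.05 (unadjusted p = 1.8e-04). A second Sema4b probe, near the floor at 7.18 on low-fat, gave a pooled difference of 0.09, on the other side. Against low-fat alone, EPA/DHA gave Sema4b an adjusted p of 0.0432, the only gene called for either single diet (1 of 13475, 0.00742%). Leaving out each of the 12 arrays in turn, that contrast called 0 probes in 10 fits. Mcam, the adhesion molecule CD146 of vessel walls, went the other way, with 0.60 on corn oil, 0.19 on EPA/DHA and a difference between them of -0.41 ± 0.09. Its 2 dimmer probes gave pooled differences of 0.14 and 0.17. The mean of 9 pericyte and smooth muscle markers was 8.54 to 8.61 on low-fat, 8.66 to 8.83 on corn oil and 8.54 to 8.75 on EPA/DHA, 1 of the 9 lay near the floor on low-fat, and its part in the Mcam values was not tested. Isoc2a gave -0.45 on corn oil and -0.25 on EPA/DHA. Cab39l, a scaffold related to the partner of the kinase LKB1, was at 9.18 to 9.21 in every EPA/DHA array and at 9.01 to 9.06 on corn oil, against 8.89 to 9.01 on low-fat. A second Cab39l probe, near the floor at 7.21 on low-fat, gave a pooled difference of 0.00. The list of 20 thus held genes that lay on the same side on both diets, as all 20 did, but not all to the same extent. In 7 of the 20 the HFDs differed at an unadjusted p under 0.05, and since both contrasts use the same estimate of the spread, a gene with a small spread ranks high for both.

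Lep, the gene of leptin, shows the opposite case. It was at 9.76, 8.36, 7.79 and 9.05 on low-fat, at 11.56, 11.11, 11.83 and 10.19 on corn oil, and at 9.33, 8.63, 9.55 and 9.25 on EPA/DHA. All corn-oil arrays lay above all others, and the EPA/DHA arrays lay within the low-fat range. The pooled difference of 1.44 ± 0.38 (unadjusted p = 0.0029, adjusted p = 0.393) thus averaged 2.43 on corn oil and 0.45 on EPA/DHA. The HFDs differed by -1.98 ± 0.44 (unadjusted p = 8.6e-04, adjusted p = 0.612). The mean of 8 white adipocyte markers was 7.44 to 7.80 on low-fat, 7.89 to 8.30 on corn oil and 7.53 to 7.69 on EPA/DHA. Lep itself is 1 of the 8 and raises that mean on corn oil. The median difference of the 8 from low-fat was 0.06 on corn oil and -0.04 on EPA/DHA. On low-fat, 4 of the 8 lay near the floor. The part of white adipocyte content in the Lep values was not tested. Without low-fat replicate 2 the pooled difference of Lep was 1.32.

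**Figure D2:**
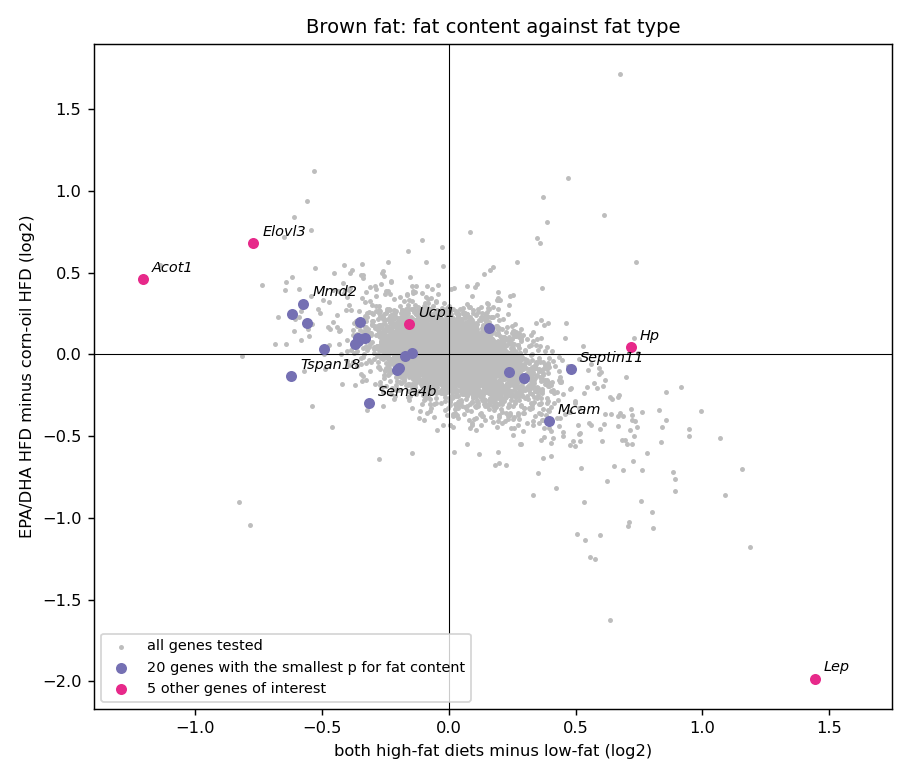
Each point is 1 of 13475 genes in brown fat; the x axis is both HFDs minus low-fat and the y axis EPA/DHA minus corn-oil HFD, both in log2 units. The 20 genes with the smallest p for fat content lie to the left (15) or right (5) of 0, mostly near the horizontal line, while Lep lies at 1.44 on x and -1.98 on y.

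The 30 pathway lists were then read against all genes tested, whose median difference was -0.00. None of their members passed the threshold, so members are counted at an unadjusted p under 0.05, for which the share over all genes was 3.12% higher and 4.45% lower. The lists whose medians lay furthest below 0 concerned fat: PPAR target genes (-0.18), de novo lipogenesis (-0.17), peroxisomal oxidation (-0.16), cholesterol synthesis and uptake (-0.16), and lipolysis and lipid droplets (-0.15), beside the circadian clock (-0.16). Those furthest above 0 were the creatine cycle and calcium pump (0.28), extracellular matrix (0.20) and adiposity-associated genes (0.10).

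Of 20 PPAR target genes tested, 6 were lower and 0 higher at an unadjusted p under 0.05, and the median was -0.18 (-0.17 without low-fat replicate 2, and between -0.19 and -0.13 without any 1 array). The widest difference was that of Acot1, a cytosolic acyl-CoA thioesterase, which splits acyl-CoA into free fatty acid and CoA. Acot1 was at 9.08, 9.65, 9.98 and 9.41 on low-fat, at 7.49, 8.69, 7.94 and 8.23 on corn oil, and at 9.11, 8.24, 7.94 and 8.91 on EPA/DHA. Only EPA/DHA replicate 1 reached into the low-fat range. The difference was -1.21 ± 0.27 (unadjusted p = 9.1e-04, adjusted p = 0.356), -1.44 on corn oil and -0.98 on EPA/DHA. A second, dimmer Acot1 probe gave -0.45 ± 0.08 with an adjusted p of 0.181, and all its HFD arrays (7.24 to 7.68) lay below all its low-fat arrays (7.72 to 8.09).

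Acot1 sits in a run of related thioesterase genes on mouse chromosome 12. Acot2, the mitochondrial member, was lower by -0.23 ± 0.06 on its brightest probe, with 8.15 to 8.30 on low-fat and 7.85 to 8.17 on the HFDs, but its other 2 probes gave -0.05 and -0.01. Acot4, the peroxisomal member, was at 8.11, 8.83, 8.54 and 8.35 on low-fat, at 7.48, 7.95, 7.32 and 7.95 on corn oil and at 8.45, 7.90, 7.65 and 7.60 on EPA/DHA. Again EPA/DHA replicate 1 alone reached into the low-fat range, and the difference was -0.67 ± 0.19. Acot6 differed by -0.12 ± 0.05. Probe sequences were not aligned here, and Acot1 and Acot2 are near-identical copies, so their probes may share targets. Acot1, Acot2 and Acot4 were called in the 24-array fit (adjusted p = 0.0232, 0.0309 and 0.0421). In white fat the differences were 0.11 for Acot1, -0.01 for Acot2 and -0.08 for Acot4.

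Since these neighbours lay lower together, the 250 bases before their RefSeq start sites (GRCm38.p6, + strand) are shown, at chr12:84009252-84009501 for Acot1, chr12:83987611-83987860 for Acot2 and chr12:84038129-84038378 for Acot4. Capitals mark the E-box CACGTG, which is its own reverse complement.
Acot1: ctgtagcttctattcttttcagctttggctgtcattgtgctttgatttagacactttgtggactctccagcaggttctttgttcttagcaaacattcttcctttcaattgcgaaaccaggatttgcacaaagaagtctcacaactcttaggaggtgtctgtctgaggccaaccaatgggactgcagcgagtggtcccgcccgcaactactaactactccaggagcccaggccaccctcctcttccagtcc
Acot2: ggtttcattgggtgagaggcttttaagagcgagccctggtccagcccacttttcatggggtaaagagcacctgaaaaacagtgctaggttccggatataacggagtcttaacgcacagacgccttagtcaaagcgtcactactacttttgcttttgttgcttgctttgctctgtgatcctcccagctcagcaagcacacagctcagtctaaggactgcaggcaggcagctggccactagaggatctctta
Acot4: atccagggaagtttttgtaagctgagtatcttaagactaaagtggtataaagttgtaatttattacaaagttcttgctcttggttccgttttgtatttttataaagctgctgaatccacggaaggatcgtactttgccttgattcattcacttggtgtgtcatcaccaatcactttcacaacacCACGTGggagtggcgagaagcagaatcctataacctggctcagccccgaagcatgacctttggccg
Pairs of these stretches were identical at 53.4% to 55.9% of aligned bases. The E-box was found in Acot4 alone, beginning at -66. It was present in 1978 of 32851 such stretches of the RefSeq genes searched (6.02%). Counted by gene, it was present in 1 of 16 PPAR target genes with a stretch and in 5 of 19 of the leading genes. A gene counts there if any of its stretches matches, so these counts cannot be set against the share of stretches. The direct repeat of AGGTCA with 1 base between its copies, bound by PPAR with its partner RXR, was searched on both strands and did not occur in the 3 stretches. It occurred in 11 of 32851 (0.0335%). These are matches of letters and show neither binding nor its absence.

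Other PPAR targets on the lower side were Slc25a20, Ehhadh, Ucp3 and Cidea. Slc25a20, the carrier that exchanges acylcarnitine for carnitine across the inner mitochondrial membrane, was at 13.45 to 13.63 on low-fat, 13.16 to 13.42 on corn oil and 13.24 to 13.39 on EPA/DHA. The groups did not overlap, the difference was -0.22 ± 0.05, and a second probe, at 10.58 on low-fat, gave -0.43. Ehhadh, the peroxisomal bifunctional enzyme, differed by -0.64 ± 0.17, -0.87 on corn oil and -0.42 on EPA/DHA. Angptl4 lay at 0.39 and Fabp3 at 0.28 on the other side, and Cd36, Cpt1b, Plin5, Hilpda, Fgf21 and Cyp4a14 were between -0.02 and 0.02. Pdk4, a PPAR target that blocks pyruvate dehydrogenase, differed by -0.20 ± 0.20, between -0.38 (without low-fat replicate 2) and -0.09 (without low-fat replicate 4). The list's median thus came from part of its members.

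In mitochondrial fatty acid oxidation 5 of 23 members were lower and 1 higher at an unadjusted p under 0.05, with a median of -0.04. Hadha, the alpha subunit of the trifunctional protein, was the higher one at 0.50 ± 0.14, with 0.65 on corn oil and 0.35 on EPA/DHA, and was called in the 24-array fit. In the peroxisomal list, 4 of 15 were lower and 2 higher, with a median of -0.16. Beside Ehhadh and Acot4, the lower ones were Hacl1 (-0.24 ± 0.08, or -0.16 without low-fat replicate 2), which shortens branched fatty acids, and Pex5 (-0.25 ± 0.08), the import receptor that docks at the Pex14 described above. Abcd2, a transporter of very-long-chain acyl-CoA (0.48 ± 0.20), and Hsd17b4 (0.21 ± 0.09) lay higher. Without low-fat replicate 2, 7 of the 15 were lower and 0 higher at an unadjusted p under 0.05.

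De novo lipogenesis had 3 of 15 members lower and 0 higher, with a median of -0.17 (-0.12 without low-fat replicate 2). Fasn, the fatty acid synthase, was at 9.31, 10.03, 9.47 and 9.47 on low-fat, at 9.29, 9.23, 8.99 and 9.08 on corn oil and at 9.42, 9.23, 8.75 and 9.19 on EPA/DHA. The groups overlapped at the edge, the HFDs gave -0.43 and -0.42, and the pooled difference was -0.42 ± 0.14 (unadjusted p = 0.0131, adjusted p = 0.568). Low-fat replicate 2 was the highest array, and without it the difference was -0.27. Acacb and Acly, an acetyl-CoA carboxylase and the ATP-citrate lyase, differed by -0.34 ± 0.13 and -0.20 ± 0.08. Scd1, the stearoyl-CoA desaturase, was near the top of the scale at 14.13 to 14.59 and differed by -0.03 ± 0.10.

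Among desaturases and elongases, with 3 of 17 lower and 0 higher, Elovl5, which elongates polyunsaturated fatty acids, stood at 11.99 to 12.55 on low-fat, 11.35 to 11.56 on corn oil and 11.41 to 12.04 on EPA/DHA. Only EPA/DHA replicate 4 reached the low-fat range. The difference was -0.58 ± 0.12 (unadjusted p = 5.5e-04), and -0.60 without low-fat replicate 2. Elovl3, the cold-inducible elongase of brown fat, was spread widely on low-fat (7.67, 8.98, 8.59 and 7.89) and on EPA/DHA (8.10, 7.53, 7.11 and 8.67). On corn oil it lay at 7.09 to 7.25 in all 4 arrays, close to the floor. Its pooled difference of -0.77 ± 0.29 came from -1.11 on corn oil and -0.43 on EPA/DHA.

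Cholesterol synthesis and uptake had 4 of 17 members lower and 0 higher, with a median of -0.16, which was -0.06 without low-fat replicate 2. Sqle, the squalene epoxidase, differed by -0.55 ± 0.13, and its second probe by -0.31. Hsd17b7, a sterol ketoreductase, was at 8.59 to 8.88 on low-fat and 8.05 to 8.56 on the HFDs with no overlap (-0.34 ± 0.09). Nsdhl (-0.38 ± 0.14) and Tm7sf2 (-0.23 ± 0.08, or -0.12 without low-fat replicate 2), enzymes of neighbouring steps, completed the 4. In white fat the same list had a median of 0.23.

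For fat storage and release, 3 of 17 lipolysis and lipid droplet genes were lower and 0 higher (median -0.15, or -0.07 without low-fat replicate 2). Lipe, the hormone-sensitive lipase, differed by -0.37 ± 0.10, the droplet protein gene Fitm2 by -0.23 ± 0.07 and Abhd5, the activator of adipose triglyceride lipase, by -0.34 ± 0.15. The Abhd5 value was -0.49 without low-fat replicate 2 and -0.19 without low-fat replicate 3. Other probes of these genes gave smaller differences, -0.12 and -0.06 for Fitm2 and -0.18 and -0.02 for Lipe, the last near the floor. In triglyceride synthesis 3 of 13 were lower and 0 higher, the acyltransferases Agpat2 (-0.58 ± 0.20), Gpam (-0.43 ± 0.14) and Dgat1 (-0.28 ± 0.10, or -0.17 without low-fat replicate 2), although the list's median was -0.04. Of fatty acid uptake genes, the transporter Slc27a1 differed by -0.44 ± 0.12, with -0.63 on corn oil and -0.24 on EPA/DHA. Markers of adipocytes of either kind lay beside these lists. The mean of 8 of them was 10.88 to 10.96 on low-fat, 10.69 to 10.88 on corn oil and 10.70 to 11.01 on EPA/DHA. That is a difference of -0.10 with or without low-fat replicate 2, and 0 of the 8 lay near the floor on low-fat. The marker list shares 4 genes with the lipolysis list, Cidec, Lipe, Plin1 and Pnpla2, and the part of adipocyte content in the lower fat lists was not tested.

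Of the thermogenic programme, Ucp1 itself could not be told apart between the diets. It was at 14.15, 14.12, 14.15 and 14.23 on low-fat, at 14.14, 14.06, 13.55 and 13.91 on corn oil and at 14.41, 13.97, 13.72 and 14.30 on EPA/DHA. The groups overlapped and the difference was -0.16 ± 0.13, with a 95% interval of -0.45 to 0.14. It was -0.21 without EPA/DHA replicate 1 and -0.09 without EPA/DHA replicate 3. These values are close to the highest of the table (14.79), where differences can be understated. In the list of 21 thermogenic and brown identity genes, 3 were lower and 0 higher: Elovl3, Cidea (-0.19 ± 0.08, or -0.12 without low-fat replicate 3), a lipid droplet protein, and Kcnk3 (-0.45 ± 0.15), a potassium channel of brown adipocytes, which gave -0.70 on corn oil and -0.20 on EPA/DHA. The median was -0.05, and -0.15 without low-fat replicate 2. Ppargc1a, the coactivator of mitochondrial biogenesis, lay at -0.82 and Dio2, which activates thyroid hormone, at -0.50, neither at an unadjusted p under 0.05, and Prdm16, Ppargc1b, Cox7a1 and Zic1 were between -0.05 and -0.01. Oxidative phosphorylation had 1 of 29 members higher and 1 lower, with a median of 0.03.

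Upstream of these genes, Adcy3, an adenylyl cyclase that makes cAMP, was at 8.79, 9.04, 9.28 and 8.75 on low-fat, at 8.15, 8.60, 7.95 and 8.43 on corn oil and at 8.67, 8.29, 8.49 and 8.27 on EPA/DHA. All HFD arrays lay below all low-fat arrays, by -0.61 ± 0.14 (unadjusted p = 9.5e-04, adjusted p = 0.356), and Adcy3 was called in the 24-array fit. A second probe of it, close to the floor at 7.23, gave 0.00. The list of adrenergic and cAMP genes had 2 of 13 members lower, 0 higher and a median of -0.02. Without low-fat replicate 2, 5 were lower and 0 higher, with a median of -0.04.

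In glucose use, 4 of 21 uptake and glycolysis genes were lower and 0 higher, with a median of -0.02. Without low-fat replicate 2, 2 were lower and 2 higher, with a median of 0.00. Slc2a4, the insulin-responsive glucose transporter, differed by -0.25 ± 0.08 and Pfkfb3, an activator of glycolysis, by -0.17 ± 0.05. In the citric acid cycle and pyruvate dehydrogenase list, 3 of 23 were lower and 1 higher. The lower ones were the pyruvate dehydrogenase kinases Pdk1 (-0.34 ± 0.09) and Pdk2 (-0.27 ± 0.06) and the phosphatase Pdp2 (-0.28 ± 0.12), which act on the complex in opposite directions. Idh2, the mitochondrial NADP-dependent isocitrate dehydrogenase, was the higher one (0.36 ± 0.14). Of 19 insulin signalling and adipogenic genes, 3 were lower: Irs3, an insulin receptor substrate (-0.64 ± 0.22, and -0.46 in white fat), the kinase gene Akt2 (-0.25 ± 0.07) and the transcription factor gene Cebpb (-0.49 ± 0.20). Without low-fat replicate 2, 5 of the 19 were lower and 0 higher.

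The clock list had 1 of 13 members higher and 2 lower, with a median of -0.16. That median was -0.04 without low-fat replicate 1 and -0.24 without EPA/DHA replicate 1. Without low-fat replicate 2 it was -0.12, with 1 member higher and 0 lower. Arntl (Bmal1), of the positive limb, was at 7.35 to 7.53 on low-fat, 7.51 to 7.80 on corn oil and 7.63 to 7.96 on EPA/DHA, a difference of 0.32 ± 0.07 (unadjusted p = 7.2e-04) with 0.28 in white fat. Ciart, a repressor of that limb (-0.25 ± 0.09), and the output factor gene Tef (-0.31 ± 0.14) lay lower. The time of day of sampling is not given in the sources used here.

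Of the extracellular matrix genes, 5 of 23 were higher and 0 lower at an unadjusted p under 0.05, 22 of 23 had a positive difference, and the median was 0.20 on both corn oil and EPA/DHA. Without low-fat replicate 2 the median was 0.26 and 8 were higher. The 5 were the basement membrane collagen Col4a1 (0.29 ± 0.09), the small proteoglycans Bgn (0.35 ± 0.11), Dcn (0.36 ± 0.12) and Lum (0.39 ± 0.17), and the fibrillar collagen Col5a1 (0.40 ± 0.17). The 3 other Dcn probes gave 0.30, 0.09 and 0.01, the last 2 dim. Col1a1 (0.12), Col1a2 (0.03) and Fn1 (0.08) were close to 0. Fibroblast markers moved with this list: the mean of 10 preadipocyte and fibroblast markers was 8.10 to 8.22 on low-fat and 8.19 to 8.69 on the HFDs, all 10 were positive, and Pdgfra, a receptor outside the matrix list, differed by 0.31. The lists share 4 genes, and the part of fibroblast content in the matrix values was not tested. The mean of the pericyte and smooth muscle markers given above was also higher on the HFDs by 0.14 (0.13 without low-fat replicate 2), and its part in the values of Col4a1 and the rest of the list was not tested either. Macrophage markers, 17 in all, averaged 7.75 to 7.94 on low-fat and 7.86 to 8.24 on the HFDs, and 3 of the 17 lay near the floor on low-fat.

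Adiposity-associated genes and adipokines had 3 of 22 members higher and 0 lower, with 19 of 22 positive and a median of 0.10, 0.16 on corn oil and 0.04 on EPA/DHA. Hp, the gene of haptoglobin, which adipose tissue secretes as an acute-phase protein, was at 11.88, 11.59, 11.0001 and 12.20 on low-fat. It was at 12.31, 12.40, 12.42 and 12.32 on corn oil and at 12.56, 12.43, 12.25 and 12.39 on EPA/DHA. All 8 HFD arrays lay above all 4 low-fat arrays, although narrowly, and the low-fat arrays were the spread-out group. The difference was 0.72 ± 0.17 (unadjusted p = 0.0014, adjusted p = 0.356), with 0.70 and 0.74 on the 2 HFDs, and all 3 Hp probes lay between 0.51 and 0.72. EPA/DHA minus corn oil was 0.04 for Hp, with a 95% interval of -0.39 to 0.48. Adipoq, the gene of adiponectin, differed by 0.00 ± 0.08, and Mest, a marker of fat expansion, by 0.17 ± 0.09 close to the floor. The chemokine Ccl11 was at 8.38 to 8.79 on low-fat and 8.83 to 9.01 on the HFDs without overlap (0.28 ± 0.07). Its second probe, at 7.81 on low-fat, overlapped between the diets and gave -0.00, so the probes disagree. The inflammatory list as a whole had 2 of 17 higher, 0 lower and a median of 0.05.

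**Figure D3:**
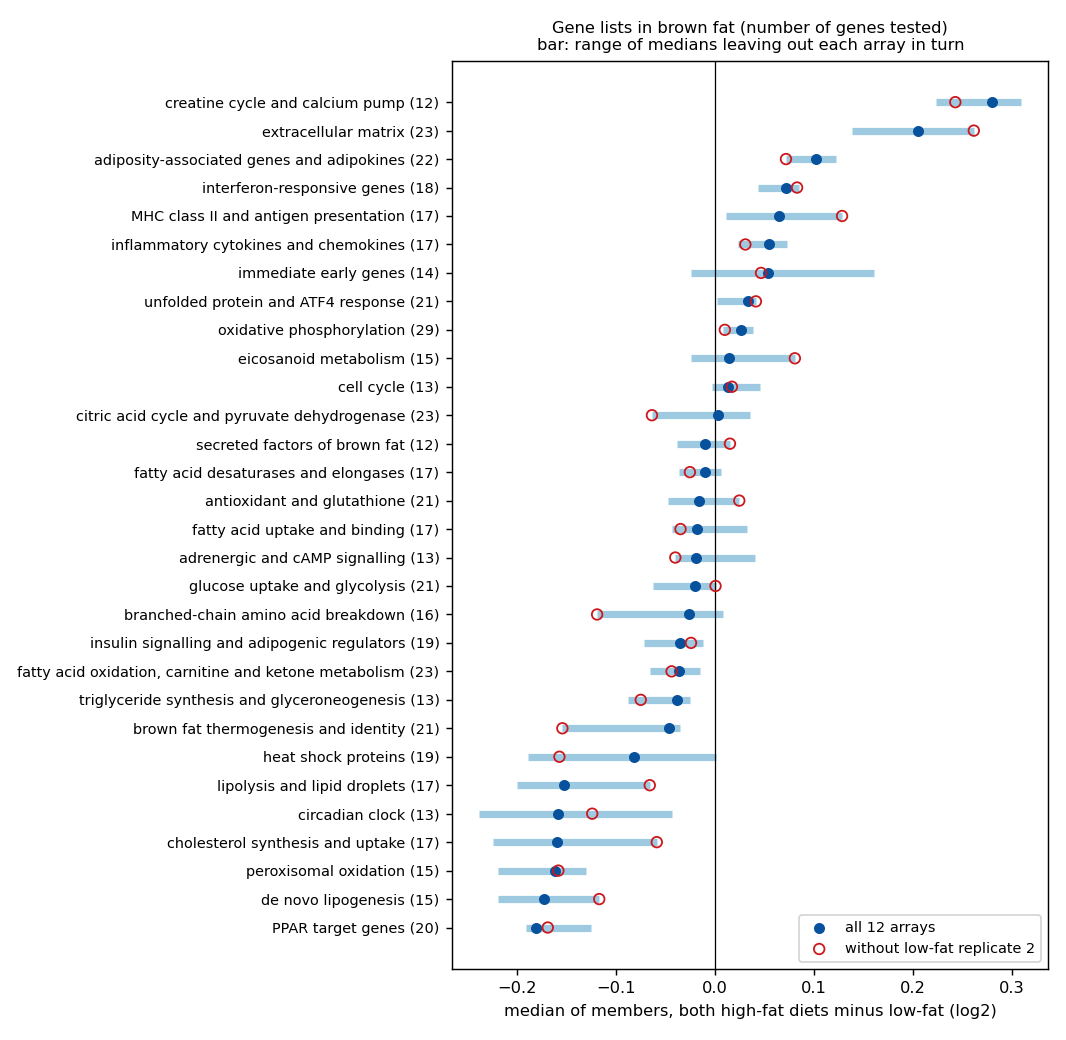
Median difference of each of 30 pathway lists in brown fat, both HFDs minus low-fat in log2 units, with the number of genes tested in parentheses; filled points use all 12 arrays, open points leave out low-fat replicate 2, and bars span the medians without each array in turn. PPAR targets (-0.18) and peroxisomal oxidation (-0.16) stay low without that array, whereas cholesterol synthesis moves from -0.16 to -0.06 and thermogenesis from -0.05 to -0.15.

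The creatine cycle and calcium pump list had the highest median, 0.28, with 2 of 12 higher and 1 lower at an unadjusted p under 0.05. Its members with the widest differences, Ckmt2 (0.89), Sln (0.74), Ryr1 (0.70) and Atp2a1 (0.60), are also genes of skeletal muscle. All 19 muscle markers tested were positive, with a median of 0.65 and 0.32 without low-fat replicate 2, and 0 of the 19 had an unadjusted p under 0.05, the levels within a diet being spread as given above. With the muscle level of each array as a covariate, the list's median was 0.16, the PPAR targets' -0.18 and the matrix list's 0.14, and 0 probes were called. The creatine transporter Slc6a8 differed by 0.27 ± 0.10, and Alpl, the phosphatase of phosphocreatine in the futile cycle, by -0.15 ± 0.07 (-0.09 without low-fat replicate 2).

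**Figure D4:**
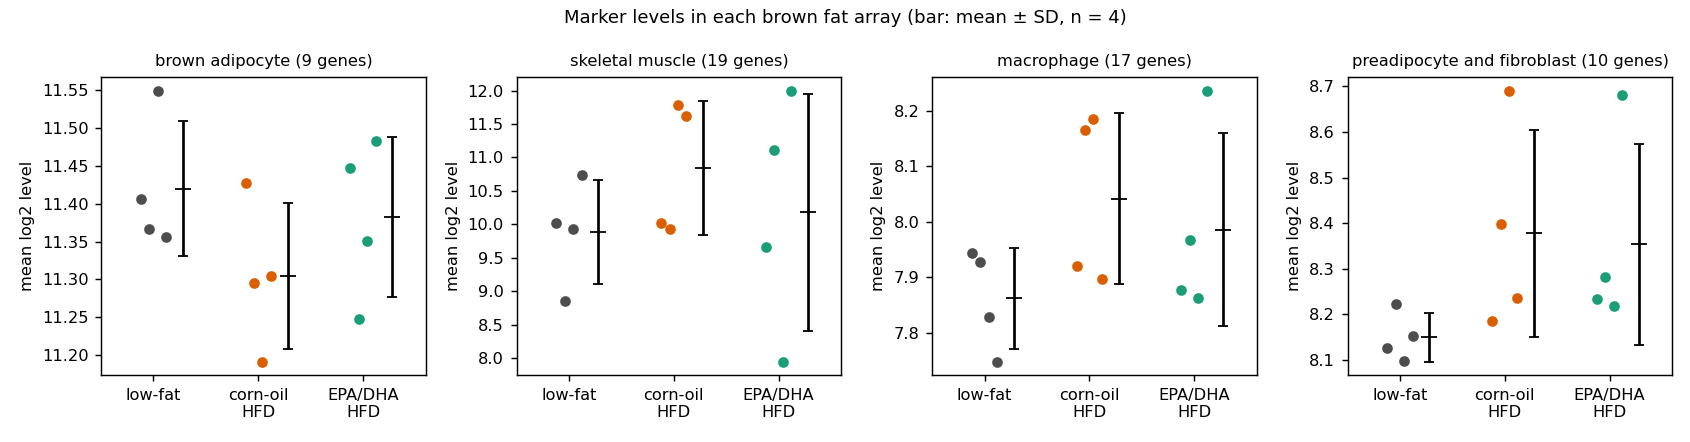
Mean log2 level of 4 marker lists in each brown fat array, by diet; points are arrays and the bar is the mean ± SD of 4. Brown adipocyte levels overlap between diets (11.36 to 11.55 on low-fat, 11.19 to 11.48 on the HFDs), skeletal muscle levels range from 7.95 to 11.998, and fibroblast levels are 8.10 to 8.22 on low-fat and up to 8.69 on the HFDs.

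The same pooled contrast in white fat called 52 of 27168 probes (0.191%) and 29 of 13389 genes (0.217%), 14 higher and 15 lower. Whether an effect differed between the tissues was tested directly, as brown minus white over all 24 arrays. The labels do not match brown and white fat arrays by mouse. The design text gives 4 mice per diet, and each diet had 4 arrays of each tissue, so the tissues probably share mice. The test nevertheless took the arrays as independent. Of 29493 probes 21 passed (0.0712%), 17 of them with a gene name. Counted by gene, with each gene represented by its brightest probe, 11 of 14270 genes passed (0.0771%). The count of probes was 10 without brown fat low-fat replicate 2 or 3 and 36 without replicate 4, and it was 13 or 11 without white fat low-fat replicate 3 or 4. Of the 20 leading genes of brown fat, 3 were among them: Tspan18, whose effect was -0.62 in brown and 0.04 in white fat (difference -0.66 ± 0.10, adjusted p = 0.00801), P2rx6 (-0.18 ± 0.03, adjusted p = 0.0225) and Hebp2 (-0.35 ± 0.07, adjusted p = 0.0425). Hebp2 and P2rx6 lay at 7.14 and 7.20 in low-fat white fat, near the floor, where a fall can be understated. Tspan18 lay at 7.44 in low-fat white fat against 9.20 in brown, and the lowest value of the table was 6.95. For Tspan18 and Hebp2 (-0.33 in brown fat), a fall as large as that in brown fat could thus not have been seen in white fat.

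Hsd17b7, the sterol ketoreductase, had opposite signs, -0.34 in brown and 0.49 in white fat, and the difference of -0.84 ± 0.14 passed (adjusted p = 0.0161). Septin9, another septin, gave -0.50 and 0.42 (difference -0.91 ± 0.16, adjusted p = 0.0233), and Lamb2, a laminin chain of basement membranes, 0.37 and -0.36 (0.73 ± 0.12, adjusted p = 0.0206). Pkd2l2 had 0.16 and -0.08 (0.24 ± 0.04, adjusted p = 0.0438). In the remaining 4 the effect in white fat was the wider: Ubd, a ubiquitin-like modifier induced by cytokines, differed by 0.06 in brown and 1.30 in white fat, Rprml by -0.10 and -0.62, Stambpl1 by -0.06 and 0.50, and Kcnj14 by -0.02 and 0.29. These 4 lay near the floor in low-fat brown fat, at 7.23 for Ubd, 7.32 for Rprml, 7.34 for Stambpl1 and 7.09 for Kcnj14, whose probe did not pass the brown fat filter. Falls can be understated there. The lowest value of the table was 6.95, so for Rprml a fall as large as that in white fat could not have appeared in brown fat. Leaving out each of the 24 arrays in turn, Tspan18, Rprml and Ubd passed in all 24 fits and Hsd17b7 in 23, while Hebp2 passed in 4 and Pkd2l2 in 5. With same-numbered arrays of a diet taken as 1 mouse, a random block kept all 11 genes. Its within-block correlation was -0.0111, so that fit was close to the unblocked fit and cannot show what shared mice would change. Brown minus white differences within a number, with fewer degrees of freedom, kept Tspan18 alone. Which arrays share a mouse is not given.

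**Figure D5:**
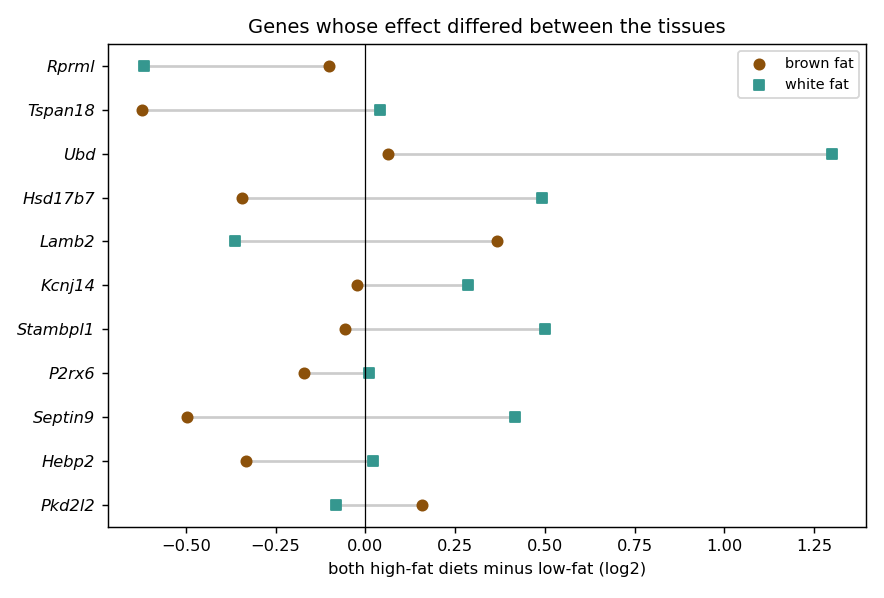
Effect of both HFDs against low-fat (x axis, log2) in brown fat (circles) and white fat (squares) for the 11 genes whose effect differed between the tissues at an adjusted p of 0.05; no error bars are drawn. Tspan18 is at -0.62 in brown and 0.04 in white fat, Hsd17b7, Septin9, Lamb2 and Pkd2l2 lie on opposite sides of 0, and Ubd is at 1.30 in white fat.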

How the data were processed

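Total RNA of 12 brown fat arrays (and 12 of white fat) had been hybridised to Illumina mouse expression arrays. The table deposited by the authors holds log2 values of each probe, and the submitters' processing notes name lumi 2.18.0. The sorted values of any 2 arrays differ by at most 0.0069, as after quantile normalisation, so a change in total signal cannot be seen. Whether the log2 is plain or variance-stabilised is not given in the sources used here. Differences near the floor (7.3 and below) and the ceiling (14.79) can be understated. Detection calls were not used here, and the number of arrays limits the precision.

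Of 45281 probes, 34885 had 1 symbol, 34818 of them matched to RefSeq (GRCm38.p6), 18 had several and 10378 none. Probes were kept above the 40th percentile of the brown fat mean (7.11), which left 27168. Each gene is its kept probe with the highest mean over 24 arrays. In limma 3.58.1 (R 4.3.3), a mean was fitted per diet over the 12 brown fat arrays, and the HFD means were pooled as (corn oil + EPA/DHA)/2 minus low-fat. Tests were two-sided, with Benjamini-Hochberg adjustment over all kept probes and a threshold of 0.05. For the tissue difference the fit held both tissues (24 arrays) and any probe that passed the filter in brown or white fat (29493). Same-numbered arrays of the tissues were also tried as a block, added after seeing the data. Scripts were tested on simulated data.

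Named are the 20 smallest p-values (fewer than 10 genes having passed), 8 genes given always (Ucp1, Lep, Adipoq, Fasn, Scd1, Mest, Pdk4, Elovl3), up to 3 members of each list at an unadjusted p under 0.05, and the genes that passed for the tissue difference, the last 2 kinds chosen after their values were seen. A few further list members named with a difference alone were also chosen after their values were seen. The members and the 30 pathway and 16 marker lists were chosen with earlier results of these data known. The alternatives tried were other filters, normalisations, priors and array weights, 1 fit over 24 arrays, the 8 HFD arrays as 1 group, a replicate block, a muscle covariate, the probe with the lowest p for each gene, and each array left out.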

Additional observations from a re-analysis of the deposited data

Results flagged for a closer look

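Within groups of 4 arrays, the highest or lowest array was set against the gap to its nearest neighbour by Dixon's criterion at 95%. Of 309 groups of the named genes and marker levels, 9 held such an array, and chance gives about 1 in 20. Tspan18 was at 8.79 in EPA/DHA replicate 2 against 8.39 to 8.45 in the other 3, still below every low-fat array. P2rx6 was at 7.27 in corn-oil replicate 4 against 7.36 to 7.37. Nadk was at 11.31 in EPA/DHA replicate 3 against 11.48 to 11.51. Prdx1, a peroxiredoxin, was at 13.26 in low-fat replicate 1 against 13.06 to 13.08. Ccl11 was at 8.83 in corn-oil replicate 4 against 8.97 to 8.99. Lipe was at 9.27 in low-fat replicate 4 against 9.54 to 9.58. The pericyte and smooth muscle marker level was 8.54 in EPA/DHA replicate 3 against 8.72 to 8.75. The preadipocyte and fibroblast level was 8.68 in EPA/DHA replicate 4 against 8.22 to 8.28. The liver marker level was 8.51 in corn-oil replicate 2 against 7.45 to 7.59.

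The effect of both HFDs differed between brown and white fat for 11 genes, each represented by its brightest probe. This was tested as an interaction in limma with the arrays taken as independent. The brown minus white differences were -0.66 for Tspan18, -1.24 for Ubd, -0.84 for Hsd17b7, -0.31 for Kcnj14, -0.56 for Stambpl1, -0.18 for P2rx6, -0.91 for Septin9 and -0.35 for Hebp2. They were 0.52 for Rprml, 0.73 for Lamb2 and 0.24 for Pkd2l2.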

How the results depend on the processing

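The pooled contrast called 0 probes under most alternatives (other filters, normalisations and priors, the 8 HFD arrays as 1 group, the muscle covariate). Array weights, which gave low-fat replicate 2 a weight of 0.244, called 3 probes, of Tspan18, Septin11 and an unnamed one, and 2 of the 3 followed fat content (a named probe that was called and whose EPA/DHA minus corn-oil interval was smaller in size at both ends than its pooled difference). One fit over all 24 arrays called 101 probes for the pooled contrast, 3308 at an unadjusted p under 0.05 and 6 for EPA/DHA against corn oil, and 76 named probes followed fat content. Leaving out each array in turn, the pooled contrast called 0 to 1 probes (Tspan18, without EPA/DHA replicate 2), the probes that followed fat content numbered 0 to 1, and the probes at an unadjusted p under 0.05 numbered 1666 to 2199. Corn oil against low-fat called 0 to 2 probes, EPA/DHA against low-fat 0 to 3, EPA/DHA against corn oil 0 to 0, and the tissue difference 10 to 36 (21 with all arrays, 10 without brown fat low-fat replicate 2 or 3, 36 without low-fat replicate 4). Of 87 named genes, 85 kept their direction under the 22 alternatives, or the 21 that kept their probe for 4 of the genes. Adipoq (-0.031 to 0.0374) and Scd1 (-0.0966 to 0.0189) changed sign when single arrays were left out. Across the diets, correlations of same-numbered brown fat deviations ran from -0.358 to 0.436, with no single sign over all numbers. For replicate 4 all were positive (0.436, 0.376 and 0.358), and for replicate 3 all were negative (-0.211, -0.115 and -0.32). Whether same-numbered arrays shared a batch was not tested, and the replicate block called 0 probes. Same-numbered brown and white fat arrays of a diet did not deviate together (correlations from -0.19 to 0.0709, own number highest in 2 of 12 pairs). As a random block, chosen after seeing the data, they left the 21 probes of the tissue difference called. The within-block correlation was -0.0111, so that fit was close to the unblocked fit. As brown minus white differences within a number, with fewer degrees of freedom, a replicate block called 2, with Tspan18 the 1 gene kept of the 11. For the tissue difference, Hebp2 missed the threshold with no filter, P2rx6 and Pkd2l2 at the 60th percentile, and P2rx6 with a trended prior. Apart from the fit over 24 arrays, whose spread is in part white fat's, the cause of these changes was not tested.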
